A study of Mus musculus with 8 samples.

Results

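The 9 genes described here encode small secreted protease inhibitors and their relatives. They are 7 genes of proteins with a whey acidic protein (WAP) domain, namely Slpi, Wfdc1, Wfdc2, Wfdc3, Wfdc12, Wfdc15b and Wfdc18, and the cystatin genes Cst3 and Cst6. They were taken by symbol from the deposited expression table, and 9 of the 9 symbols were found among its 24062 genes. The levels are given in FPKM, that is fragments scaled to the length of the exons and to the depth of the library.

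RNA was sequenced from 4 groups of mouse cells with 2 libraries each, and replicates 1 and 2 were not described as separate cultures. Every p-value here rests on the scatter between the 2 libraries of a group, pooled over the groups of a fit. This scatter may be technical. Embryonic stem cells (ESC) were wild type cells of the R1 line, with the strain given as 129*1 * 129S1, on inactivated embryonic fibroblasts, grown with LIF, serum and inhibitors of MEK and GSK and replated to remove the fibroblasts. The other 3 groups were HC11 cells, a single wild type line of mammary epithelial cells from COMMA-1D of Balb/c mice, all with insulin. Normal cells (N) had grown to confluence with EGF. Primed cells (P) had received hydrocortisone, a glucocorticoid, in medium with less serum and without EGF for 48 h. The third state (PRL) then had 72 h of fresh medium with prolactin beside hydrocortisone. P therefore differed from N in EGF, serum, hydrocortisone and time, and PRL differed from P in prolactin, fresh medium and time, and within each step these cannot be told apart.

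The WAP domain is a short fold held together by disulfide bonds, and several proteins that carry it block serine proteases. Slpi (secretory leukocyte protease inhibitor) blocks elastase and cathepsin G of neutrophils and is made by many mucosal and glandular epithelia. Cystatins block cysteine proteases of the papain family such as the cathepsins of lysosomes. The whey acidic protein that gave the domain its name is a major milk protein of mice, and protease inhibitors are found in milk and in other secretions.

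The libraries held 11938392 (ESC replicate 2) to 33916913 (PRL replicate 2) fragments and thus differed up to 2.84-fold in depth. For a gene of 1 kb, 3 fragments make 0.251 FPKM in the shallowest library and 0.0885 FPKM in the deepest, so that lower values rest on very few fragments. Pluripotency markers summed to 5036 and 5065 FPKM in ESC and to at most 0.761 FPKM in any HC11 library. HC11 cells had markers of both luminal and basal mammary epithelium, and the milk proteins summed to 120 and 139 FPKM in PRL and to at most 0.609 FPKM elsewhere. The leukocyte marker Ptprc and the neutrophil genes S100a9 and Mpo were at 0 in all 8 libraries. The 5 neutrophil markers measured summed to 0.234 to 0.997 FPKM in HC11 cells. In ESC they summed to 3.21 and 3.50 FPKM, most of it Cxcr2. The 8 macrophage markers summed to 4.04 to 6.71 FPKM in HC11 cells and to 18.0 and 21.9 in ESC, most of it Cd68. The ESC libraries stood apart from each other. Of the fibroblast markers, 14 had an average of 1 FPKM or more in ESC, and 13 of these were at least 2-fold higher in replicate 1 and 0 in replicate 2.

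The start regions of 3 genes are shown because these genes had the largest changes at priming. The windows are RefSeq sequence of GRCm38.p6 from 250 bases before to 50 bases from the start site, and 7 of the 9 genes have such a window, Wfdc1 and Cst6 being the exceptions. Each window was searched on both strands for AGAACA, the half-site that the glucocorticoid receptor is known to prefer, for TTCNNNGAA, the STAT motif, for TATAAA, the TATA box, and for TGANTCA, the AP-1 motif. Capitals mark matches to AGAACA or its reverse complement and to TATAAA, and the matches do not overlap. Cst3 is at chr2:148875463-148875762 on the minus strand, Wfdc18 at chr11:83708754-83709053 on the plus strand and Wfdc3 at chr2:164743218-164743517 on the minus strand. The window of Wfdc3 surrounds a start site inside the gene and not the 5′ end of its longest span, which is at 164745931 in GENCODE, and the sequence around that end was not searched.
Cst3: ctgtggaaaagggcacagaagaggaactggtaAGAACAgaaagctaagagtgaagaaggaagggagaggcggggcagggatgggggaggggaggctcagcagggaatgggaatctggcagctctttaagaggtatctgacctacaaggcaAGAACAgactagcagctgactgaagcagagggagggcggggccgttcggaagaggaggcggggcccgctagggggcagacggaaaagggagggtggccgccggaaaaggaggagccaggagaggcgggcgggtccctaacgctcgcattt
Wfdc18: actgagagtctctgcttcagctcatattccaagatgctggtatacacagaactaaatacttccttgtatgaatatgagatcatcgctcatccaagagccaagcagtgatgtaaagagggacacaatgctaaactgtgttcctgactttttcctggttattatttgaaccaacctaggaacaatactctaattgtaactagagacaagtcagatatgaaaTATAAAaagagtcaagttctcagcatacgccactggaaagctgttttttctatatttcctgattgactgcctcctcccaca
Wfdc3: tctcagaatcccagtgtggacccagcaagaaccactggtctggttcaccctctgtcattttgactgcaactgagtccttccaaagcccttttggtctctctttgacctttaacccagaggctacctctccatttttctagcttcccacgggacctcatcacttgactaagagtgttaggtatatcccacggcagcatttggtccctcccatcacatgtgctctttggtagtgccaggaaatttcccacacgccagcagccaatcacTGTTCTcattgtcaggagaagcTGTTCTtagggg

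AGAACA was found in 3 of the 7 windows, against 18.9% of 32544 mouse promoter windows of the same length. Cst3 had it at -218 and -100 from the start site, and the reverse complement was in Wfdc3 at 17 and 39 after the start and in Wfdc15b at -133. TATAAA was found in 1 of 7 windows, that of Wfdc18 at -31, against 13.6% of all windows. TTCNNNGAA (8.33% of all windows) and TGANTCA (7.79%) were found in 0 of 7. These matches describe the letters of short windows and say nothing on binding.

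Together the 9 genes took 0.00955% and 0.00824% of the fragments of the ESC libraries, 0.242% and 0.243% of those of N, 1.02% and 1.07% of those of P, and 0.931% and 0.977% of those of PRL. In the FPKM, which corrects for gene length, they made up 0.600% and 0.607% of the total of N and 3.15% and 3.32% of that of P. Cst3, Wfdc18 and Slpi held 81.5% to 94.5% of the FPKM of the 9 genes in every library. Which gene led differed between the states of HC11 cells. In N it was Slpi, the 34th and 35th highest gene of the libraries, and in P and PRL it was Cst3, which ranked 2 and 1 in P and 3 and 3 in PRL. Wfdc18 ranked 221 and 224 in N, 4 and 3 in P, and 6 and 5 in PRL. In bulk RNA, fewer expressing cells and less RNA per cell cannot be told apart.

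**Figure D1:**
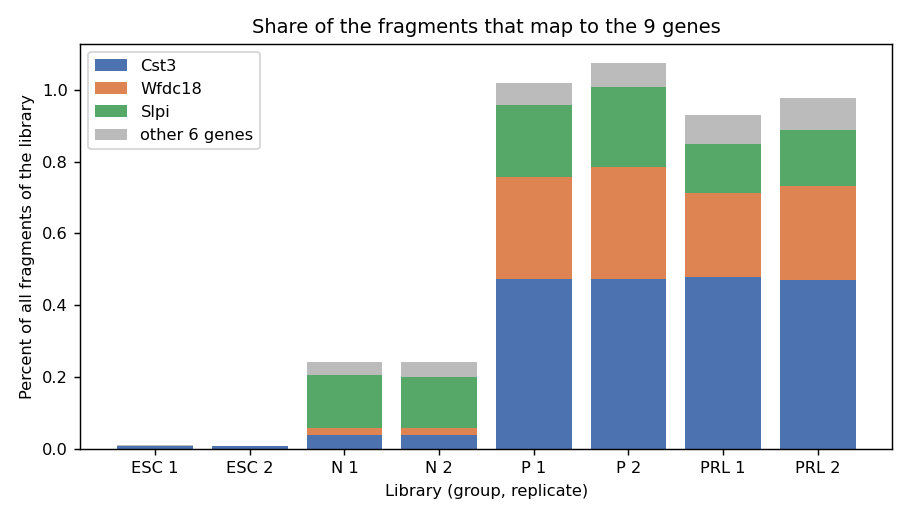
Percent of all fragments of each library that came from Cst3, Wfdc18, Slpi and the other 6 genes, stacked, for the 8 libraries. The 2 libraries of a group are alike, with 0.242% and 0.243% in N and 1.02% and 1.07% in P, and Cst3 and Wfdc18 make up most of the taller bars of P and PRL.

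The levels of the 9 genes differed widely in HC11 cells. Wfdc18, known as WDNM1 or extracellular proteinase inhibitor, had 314 and 318 FPKM in N, 5195 and 5751 in P, and 4284 and 4821 in PRL, with no fragment in either ESC library. Slpi had 1.47 and 0.0956 FPKM in ESC, 1704 and 1647 in N, 2298 and 2533 in P, and 1567 and 1767 in PRL. Cst3, which encodes cystatin C, had 110 and 102 FPKM in ESC, 533 and 531 in N, 6384 and 6367 in P, and 6459 and 6335 in PRL. For Wfdc18 both P libraries were above both PRL libraries, for Slpi P was highest while N and PRL overlapped, and for Cst3 P and PRL overlapped.

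Wfdc2, known as HE4 from human epididymis, had 14.8 and 8.87 FPKM in ESC, 401 and 475 in N, 433 and 483 in P, and 592 and 661 in PRL. Wfdc3, whose role is less known, had 62.5 and 67.6 FPKM in N, 302 and 321 in P, 419 and 466 in PRL, and 0 fragments in ESC. Wfdc12, also named Swam2, had 22.8 and 23.6 FPKM in N, 65.7 and 73.4 in P, 47.5 and 38.8 in PRL, and 0 fragments in ESC. The N and P libraries of Wfdc2 overlapped, Wfdc3 was ordered N, P, PRL from low to high without overlap, and Wfdc12 was highest in P. Of the windows of 50 bases in the Wfdc12 transcripts, 10.9% lie in the antisense gene A730032A03Rik, which has no row of its own. The kit does not mark strand, so fragments there cannot be assigned to either gene. The other 8 genes share none of their windows with another gene.

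The other 3 genes were low. Cst6, which encodes cystatin M/E, an inhibitor of legumain and of cathepsins in skin, had 0.344 and 0.0848 FPKM in ESC, 1.66 and 1.55 in N, 1.74 and 1.67 in P, and 3.93 and 4.25 in PRL. Wfdc15b, also named SWAM1, had 0.448 and 0.0761 FPKM in N from 6 and 1 fragments, 2.03 and 2.27 in P from 28 and 32, 1.66 and 1.95 in PRL, and 0 in ESC. Wfdc1, also named ps20, had 0.407 and 0.143 FPKM in ESC, 0 in both N libraries, 0.285 and 0.382 in P, and 0.457 and 0.328 in PRL, or 9, 0, 19 and 27 fragments per group. Cst6 was high in both PRL libraries and Wfdc15b in all 4 of P and PRL. The 0 fragments of Wfdc1 in N allow up to 0.0555 FPKM, and intervals of this kind cover counting error only. Wfdc1 was below 1 FPKM in every library and was not tested.

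**Figure D2:**
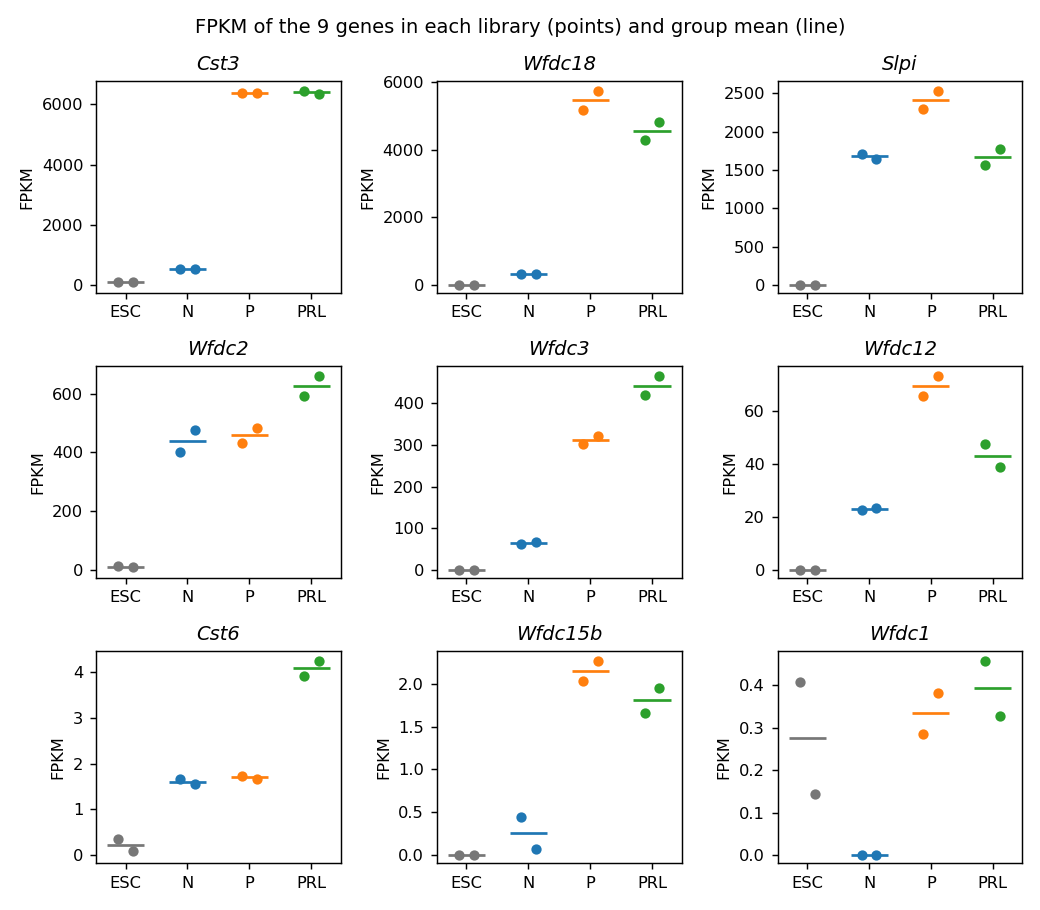
FPKM of the 9 genes in each library (points, replicate 1 left and replicate 2 right) and the mean of the group (line), on linear axes that differ between genes. Cst3 and Wfdc18 step up between N and P, Wfdc2, Wfdc3 and Cst6 are highest in PRL, and Slpi and Wfdc12 are highest in P.

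Differences between groups were tested on log2(FPKM + 1) over the 13210 genes with at least 1 FPKM in at least 2 libraries, with limma and p-values adjusted over all of them. To be called, a gene needed a log2 fold change of 1 or more in either direction and an adjusted p below 0.001. Of the 9 genes 8 passed the filter. A gene can pass it only through the groups where it is high, and its direction is then partly set by the filter. All comparisons use the same N or P libraries as another one, so their results are not independent of each other.

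The comparison of N with ESC asked how the mammary cells, with insulin and EGF but before hydrocortisone and prolactin, differ from pluripotent cells. In N cells 7 of the 8 tested genes were higher past the thresholds, against 15.6% of all genes, and 0 were lower, against 20.7% (0 also at an unadjusted p under 0.05 and with limma-voom). The median log2 fold change of the 8 was 4.86, beside -0.07 over all genes. Wfdc3, Wfdc12, Wfdc18, Wfdc15b and Cst6 were below 1 FPKM in both ESC libraries and passed the filter only through HC11 cells. They could not be called lower in N, so the counts and the median do not compare fairly with those of all genes. Slpi went from 0.785 ± 0.975 FPKM in ESC to 1675 ± 39.9 in N (SD, n = 2 libraries), with a log2 fold change of 9.99 and a standard error (SE) of 0.34 (limma adjusted p = 7.13e-07). The 20 fragments of Slpi in ESC were 19 in replicate 1 and 1 in replicate 2. That is the library with the higher fibroblast markers, and their part in the Slpi level was not tested. Without ESC replicate 1 the log2 fold change of Slpi was 10.58, and without replicate 2 it was 9.40.

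Wfdc18, Wfdc3 and Wfdc12 had no fragment in ESC. Set against a limit of 3 fragments over both ESC libraries, Wfdc18 was at least 1527-fold higher in N (limma adjusted p = 1.22e-08), Wfdc3 at least 474-fold (adjusted p = 2.13e-08) and Wfdc12 at least 149-fold (adjusted p = 1.97e-07). Wfdc2 had 11.8 ± 4.18 FPKM in ESC and was higher in N, with 438 ± 52.0 (log2 fold change 5.13, SE 0.21, limma adjusted p = 1.87e-06). The 2 cystatins also had fragments in ESC, 2106 of Cst3 and 24 of Cst6, the latter 20 in replicate 1 and 4 in replicate 2. Cst3 was 5.02-fold higher in N, with 532 ± 1.55 against 106 ± 6.01 FPKM (log2 fold change 2.32, SE 0.07, adjusted p = 3.97e-07). Cst6 stood at 1.60 ± 0.0797 in N and 0.214 ± 0.183 in ESC (log2 fold change 1.11, SE 0.12, adjusted p = 0.000167). This call of Cst6 was lost without ESC replicate 2 (log2 fold change 0.95), and without N replicate 1 or 2 (adjusted p up to 0.00232). Wfdc15b was not called (log2 fold change 0.32, adjusted p = 0.0886). In 8 of 8 genes the libraries of N and ESC did not overlap, which held for 86.6% of all genes.

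The comparison of P with N asked what 48 h of priming with hydrocortisone and insulin, without EGF, did to these genes. Past the thresholds 5 of the 8 rose, namely Wfdc18, Cst3, Wfdc3, Wfdc12 and Wfdc15b, where 4.54% of all genes rose. None of the 8 fell, where 4.1% of all genes did, with 0 falls also at an unadjusted p under 0.05 and with limma-voom. Wfdc15b was below 1 FPKM in N and passed the filter only through P and PRL, so it could not be called lower. The median log2 fold change was 1.44 beside 0.02 over all genes. The libraries of the groups did not overlap in 7 genes, beside 80.6% of all genes.

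Wfdc18 rose 17.3-fold at priming, where the 316 ± 3.34 FPKM of N became 5473 ± 393 (log2 fold change 4.11, SE 0.08, limma adjusted p = 1.63e-06). Cst3 rose 12.0-fold and reached 6375 ± 12.4 FPKM in P (log2 fold change 3.58 with SE 0.07, adjusted p = 1.63e-06). AGAACA was in the windows of Cst3, Wfdc3 and Wfdc15b, and not in those of Wfdc18 and Wfdc12, which also rose, nor of Slpi and Wfdc2. The window of Wfdc18 held TATAAA. Whether such matches bear on the changes was not tested. Wfdc3 rose 4.79-fold, with 65.1 ± 3.61 FPKM before and 312 ± 13.6 after priming (log2 fold change 2.24, SE 0.08, adjusted p = 7.76e-06). Wfdc12 rose as well, with 23.2 ± 0.598 FPKM before and 69.6 ± 5.41 after priming (log2 fold change 1.54, SE 0.11, adjusted p = 8.91e-05). For the low Wfdc15b the 7 fragments of N, or 0.262 ± 0.263 FPKM, stood against 60 fragments and 2.15 ± 0.165 FPKM of primed cells (log2 fold change 1.33, SE 0.15, adjusted p = 0.000613).

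The calls of Wfdc12 and Wfdc15b were the weaker ones. Without N replicate 1 or 2 or P replicate 1 or 2, both lost the threshold on the adjusted p and Wfdc18, Cst3 and Wfdc3 remained as the 3 called genes, with adjusted p up to 0.00188 for Wfdc12 and up to 0.00795 for Wfdc15b. Wfdc15b also lost its call in a fit with the replicate number as a block (limma adjusted p = 0.0019).

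The other 3 genes were not called. Wfdc2 had 438 ± 52.0 FPKM in N and 458 ± 35.3 in P (log2 fold change 0.07, limma adjusted p = 0.851), and Cst6 had 1.60 ± 0.0797 and 1.70 ± 0.0519 (log2 fold change 0.05, adjusted p = 0.774). Slpi had 1675 ± 39.9 and 2415 ± 167 FPKM, a log2 fold change of 0.53 (SE 0.34, adjusted p = 0.249). The spread of Slpi between the ESC libraries enters that error. Fitted on the 6 HC11 libraries alone, its SE was 0.08 and its adjusted p was 0.000358, with the fold change still under the threshold.

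Other cell markers differed between N and P as well. The 8 basal markers summed to 4158 to 4239 FPKM in N and to 1352 to 1369 in P, and the 9 luminal markers to 648 to 669 in N and to 889 to 893 in P, with 0 of either list at 0 in both libraries of a group. Within both lists the genes went both ways. Among basal markers, Krt5 had 1452 and 1448 FPKM in N and 279 and 285 in P. Krt15 had 15.4 and 18.2 in N and 341 and 322 in P. Among luminal markers, Krt18 had 77.2 and 73.3 in N and 129 and 132 in P. Krt8 had 239 and 228 in N and 180 and 185 in P. The 16 fibroblast markers summed to 1053 to 1155 FPKM in N and 1307 to 1401 in P, but they did not move together. Postn had 317 and 348 FPKM in N and 1175 and 1074 in P, whereas Fn1 had 641 and 525 in N and 122 and 128 in P, and S100a4 had 128 and 118 in N and 20.8 and 24.6 in P. The part of such differences in the levels of the inhibitor genes was not tested.

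**Figure D3:**
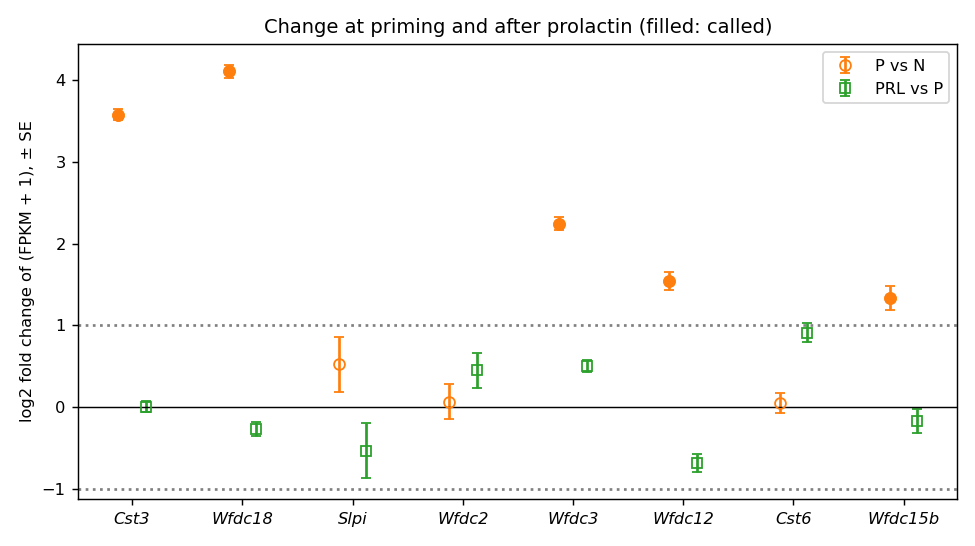
Log2 fold change of (FPKM + 1) with its SE from limma for the 8 tested genes, P against N (circles) and PRL against P (squares), with filled symbols for genes past both thresholds and dotted lines at 1 and -1. The 5 filled symbols are all of P against N, and the changes of PRL against P lie between -0.68 (Wfdc12) and 0.91 (Cst6).

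The comparison of PRL with P covered the step of 72 h with prolactin and fresh medium after priming, whose parts cannot be told apart. Of the 8 genes 0 rose and 0 fell past the thresholds, beside 0.689% and 1.44% of all genes, and limma-voom also called 0. At an unadjusted p under 0.05, 2 genes were higher (Cst6 and Wfdc3), beside 11% of all genes, and 2 were lower (Wfdc12 and Wfdc18), beside 34.9% of all genes. The median log2 fold change of the 8 was -0.08. That of all genes was -0.15 here, so the values below are also given relative to it. In 7 genes the libraries did not overlap, beside 79.9% of all genes.

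Cst6 differed the most, with 1.70 ± 0.0519 FPKM in P and 4.09 ± 0.228 in PRL, a 2.40-fold difference (log2 fold change 0.91, SE 0.12, limma adjusted p = 0.00267, and 1.06 relative to the median gene). At such levels the offset of 1 FPKM lowers the fold change, and limma-voom on its 327 fragments in P and 977 in PRL gave 1.27 (adjusted p = 0.00198). With quantile normalization Cst6 passed both thresholds (log2 fold change 1.19, adjusted p = 0.000475). Wfdc3 had 312 ± 13.6 FPKM in P and 442 ± 32.9 in PRL (log2 fold change 0.50, adjusted p = 0.00444, 0.65 relative to the median gene). Wfdc2 had 458 ± 35.3 and 626 ± 48.8 FPKM (log2 fold change 0.45, adjusted p = 0.152), and the fit of the 6 HC11 libraries, which leaves out the spread of the ESC pair, gave an adjusted p of 0.00504 for the same fold change.

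Wfdc12 had 69.6 ± 5.41 FPKM in P and 43.1 ± 6.17 in PRL (log2 fold change -0.68, limma adjusted p = 0.00495, -0.53 relative to the median gene). Wfdc18 had 5473 ± 393 and 4553 ± 379.7 FPKM (log2 fold change -0.27, adjusted p = 0.0482), which was -0.12 relative to the median gene. Slpi had 2415 ± 167 and 1667 ± 141 FPKM (log2 fold change -0.54, adjusted p = 0.261), and its adjusted p was 0.000444 in the fit of the 6 HC11 libraries. Cst3 had 6375 ± 12.4 and 6397 ± 88.1 FPKM, a log2 fold change of 0.00 (SE 0.07, adjusted p = 0.994) that was -0.25 with quantile normalization. Wfdc15b had 2.15 ± 0.165 and 1.81 ± 0.205 FPKM (log2 fold change -0.17, adjusted p = 0.437), which was 0.15 with quantile normalization. The basal markers summed to 1352 to 1369 FPKM in P and 777 to 827 in PRL, and the luminal markers to 889 to 893 and 1064 to 1069. The fibroblast markers summed to 1307 to 1401 FPKM in P and 550 to 555 in PRL. Within the basal, luminal and fibroblast lists the genes again went both ways. Among basal markers, Krt5 had 279 and 285 FPKM in P and 110 and 117 in PRL. Krt17 had 115 and 116 in P and 206 and 235 in PRL. Among luminal markers, Krt18 had 129 and 132 in P and 255 and 261 in PRL. Elf5 had 23.8 and 23.1 in P and 19.3 and 17.9 in PRL. Among fibroblast markers, Postn had 1175 and 1074 in P and 286 and 254 in PRL. Fn1 had 122 and 128 in P and 206 and 243 in PRL. The part of such markers in the values of the inhibitor genes was not tested.

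Over both steps, from N to PRL, 4 of the 8 genes rose past the thresholds, where 5.47% of all genes rose, and 0 fell, where 8% did (0 also at an unadjusted p under 0.05 and with limma-voom). Wfdc15b, counted among those that rose, passed the filter only through P and PRL. Wfdc18 was 14.4-fold higher in PRL than in N (log2 fold change 3.84, limma adjusted p = 8.84e-07), Cst3 12.0-fold (3.58, adjusted p = 6.38e-07) and Wfdc3 6.80-fold (2.75, adjusted p = 1.74e-06). Wfdc15b was called as well (log2 fold change 1.17, adjusted p = 0.000762), but not in a fit with the replicate number as a block (adjusted p = 0.00218), nor without N replicate 2 or either library of P or PRL (adjusted p up to 0.00946). Wfdc12 and Cst6 were within the threshold on p but just under that on the fold change, with log2 fold changes of 0.86 and 0.97 (adjusted p = 0.000755 and 0.000718), and both passed with median ratio scaling (1.07 and 1.13). Wfdc2 was not called (log2 fold change 0.52, adjusted p = 0.0838, and 0.00179 in the fit of the 6 HC11 libraries). Slpi had 1675 ± 39.9 FPKM in N and 1667 ± 141 in PRL (log2 fold change -0.01, adjusted p = 1). Of the 8 genes 7 had groups that did not overlap, beside 82.2% of all genes.

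The other genes of the same families were mostly silent. Beside the counts of called genes in the lists below stand the shares of all genes tested. In P against N 4.54% rose and 4.1% fell, and in PRL against P 0.689% and 1.44%. In PRL against N the shares were 5.47% and 8%, and between N and ESC 15.6% were higher in N and 20.7% lower. The lists are short, so that 0 or 1 called gene says little on a list. Of 16 other WAP domain genes 15 had a row and 3 were tested. Wfdc17 had 0.371 ± 0.266 FPKM in N and rose at priming to 4.34 ± 0.358 (log2 fold change 1.97, limma adjusted p = 8.62e-05), the only call of the 3 in P against N, and stood at 1.06 ± 0.00765 FPKM in PRL. Wap, the whey acidic protein itself, rose from 0.182 ± 0.152 FPKM in P to 8.95 ± 0.787 in PRL (log2 fold change 3.08, adjusted p = 7.52e-05), the only call in PRL against P. Wap was below 1 FPKM in P and passed the filter only through PRL, so its call does not compare with the 8 genes described here. Wfdc17 was below 1 FPKM in N and passed only through P and PRL. The level of Wap in PRL stayed below those of Wfdc18, Slpi, Wfdc2, Wfdc3 and Wfdc12. The median log2 fold change of the 3 was 0.62 in P against N and -0.19 in PRL against P.

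Of 20 other cystatins 4 were tested, and 0 of them were called between the states of HC11 cells (medians -0.02 in P against N, -0.04 in PRL against P and -0.21 in PRL against N). The intracellular Cstb had 137, 133 and 142 FPKM in N, P and PRL. Between N and ESC 1 was higher in N (Cstad, log2 fold change 1.62, limma adjusted p = 4.64e-05) and 2 were lower (Fetub, -2.94, adjusted p = 8.27e-07, and Ahsg, -1.81, adjusted p = 2.02e-06). Of 22 Kunitz and Kazal inhibitors, which block serine proteases by other folds, 21 had a row and 5 were tested, with 0 called in P against N. Spink5, an inhibitor of skin kallikreins, fell from 56.8 ± 1.57 FPKM in P to 21.1 ± 0.124 in PRL (log2 fold change -1.39, adjusted p = 0.000238). Spint2, an inhibitor of membrane-bound serine proteases, had 206, 356 and 493 FPKM in N, P and PRL and was called in PRL against N (log2 fold change 1.26, adjusted p = 8.96e-06). Spink5 was also higher in N than in ESC (4.96, adjusted p = 4.43e-08) and Tfpi lower (-3.22, adjusted p = 5.28e-07).

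The proteases that such inhibitors act on were counted in the same way. Of all genes, 4.54% rose and 4.1% fell in P against N, 0.689% and 1.44% in PRL against P, and 5.47% and 8% in PRL against N. Of 11 cysteine proteases 9 were tested, and in P against N 1 rose, Ctsf, from 5.29 ± 0.442 to 20.2 ± 0.176 FPKM (log2 fold change 1.75, limma adjusted p = 2.77e-05), and 0 fell. The median of the 9 was 0.44. The highest, Ctsl and Ctsb, had 162 and 69.4 FPKM in N and 138 and 94.7 in P. In these units Cst3 was above each of the 11 in every HC11 library. In PRL against P 0 of the 9 were called. Of 18 secreted and surface serine proteases 12 were tested. In P against N 2 rose, Prss22 (log2 fold change 1.48, adjusted p = 9.15e-05) and Prss8, known as prostasin (1.01, adjusted p = 0.000103), and 0 fell, with a median of 0.11. Prss23 had the largest fold change of the list in that comparison without passing the threshold on p, with 12.0 FPKM in N and 85.8 in P (2.74, SE 0.43, adjusted p = 0.00257). The spread of its ESC libraries, 4.22 and 0.805 FPKM, enters that error, while N had 11.5 and 12.5 and P 88.8 and 82.7. Plau, with 4.96 and 1.64 FPKM in ESC, had 12.8 in N and 5.43 in P (-1.10, adjusted p = 0.0379). Elane and Ctsg, the neutrophil proteases that Slpi is known to block, had at most 0.0442 FPKM and 0 in HC11 cells. In PRL against P Tmprss4 fell from 4.51 ± 0.345 to 0.839 ± 0.0277 FPKM (-1.58, adjusted p = 0.000373) and 0 rose, with a median of -0.34. In PRL against N 1 gene of each list rose, Ctsf (1.76, adjusted p = 1.35e-05) and Prss23 with 157 FPKM in PRL (3.60, adjusted p = 0.000556), and 0 fell, with medians of 0.18 and -0.37. Between N and ESC 7 of the 12 serine proteases were higher in N and 0 lower, beside 15.6% and 20.7% of all genes, with a median of 1.56. Among the 7 were Htra1 (2.04, adjusted p = 0.000865), Tmprss4 (1.85, adjusted p = 8.51e-06) and Prss8 (1.85, adjusted p = 1.57e-06). Of the 9 cysteine proteases 2 were higher in N, Ctsh (3.25, adjusted p = 3.55e-05) and Ctso (1.63, adjusted p = 6.93e-05), and 1 was lower, Ctsc (-1.05, adjusted p = 8.28e-05), with a median of -0.37.

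Of the 9 genes 5 lie in one stretch of 556.7 kb on chromosome 2 of GRCm38, from Wfdc12 (164189231 to 164190608) over Wfdc15b (164214454 to 164221660), Slpi (164354070 to 164389095) and Wfdc2 (164562413 to 164568510) to Wfdc3 (164731180 to 164745931). With 100 kb on either side the stretch holds 46 coding genes. Its other 10 Wfdc genes were at most 1.33 FPKM in any library, and Eppin, also a WAP domain gene of the stretch, was at 0 in all libraries. Among the 41 genes that are not described here, 40 had a row, 17 reached 1 FPKM and 16 were tested. In P against N 0 of the 16 rose and 1 fell, beside 4.54% and 4.1% of all genes, and counts of 0 and 1 lie near these shares. The gene that fell was Ube2c, a gene of dividing cells, from 162 to 14.6 FPKM (log2 fold change -3.38, limma adjusted p = 2.73e-05). Of the 5 members in the stretch 3 rose in that comparison (Wfdc12, Wfdc15b and Wfdc3), beside the same 4.54% of all genes, while Slpi and Wfdc2 were not called. Of these, Wfdc15b passed the filter only through P and PRL. Wfdc15a, next to Wfdc12 and Wfdc15b, had 0.373, 0.483 and 0.318 FPKM in N, P and PRL, and Sdc4, a proteoglycan gene between Slpi and Wfdc2, had 269, 381 and 452 FPKM.

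**Figure D4:**
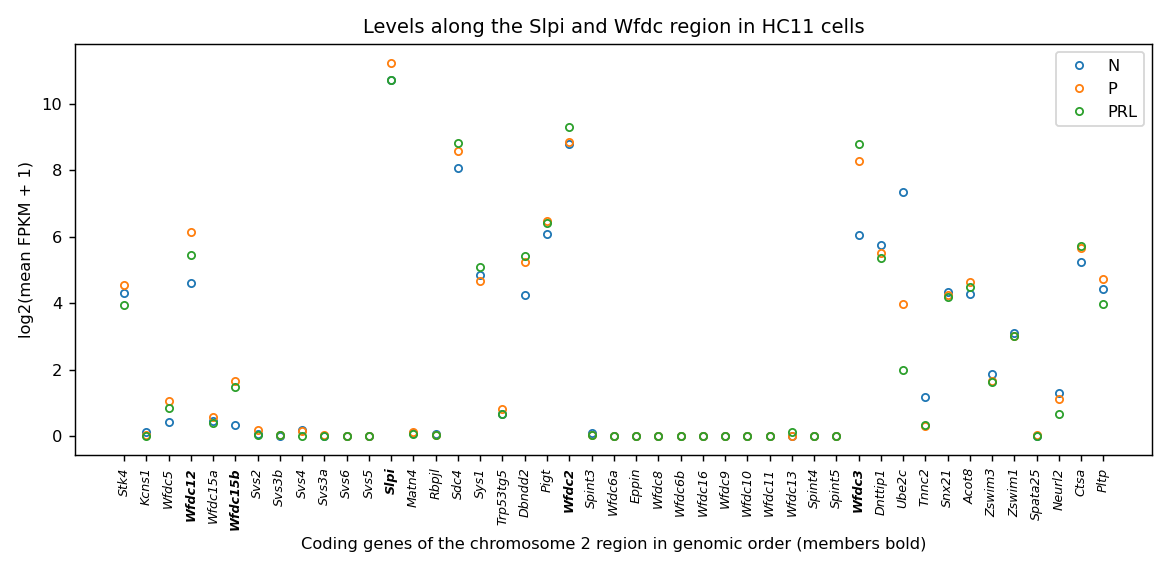
Log2(mean FPKM + 1) in N, P and PRL of the coding genes of the chromosome 2 stretch that have a row, in genomic order and with the 5 genes of the set in bold. Slpi, Wfdc2, Wfdc3 and Wfdc12 stand out, Wfdc15b reaches 2.27 FPKM in a P library, and the 10 Wfdc genes outside the set have at most 1.33 FPKM in any library.

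Cst3 lies elsewhere on chromosome 2 (148871722 to 148875692, minus strand), next to 6 coding genes within 100 kb, among them the cystatin genes Cst8, Cst9, Cst12 and Cst13. None of these 6 passed 0.580 FPKM in any library, beside 6375 FPKM of Cst3 in P. Wfdc18 is on chromosome 11 (83709015 to 83711348), Wfdc1 on chromosome 8 (119666365 to 119688222) and Cst6 on chromosome 19 (5344705 to 5349574).

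For each tested gene the 3 genes with the most similar pattern over the 8 libraries were listed, by the root mean square distance of log2(FPKM + 1) after centring. Those of Cst3 were Matn2 (0.25), Atp6v1b1 (0.27) and Ehf (0.30), and Ehf, an epithelial transcription factor, had 6.63, 102 and 95.6 FPKM in N, P and PRL. Those of Wfdc3 were Lcn2 (0.42), 1810011O10Rik (0.47) and Cited4 (0.62). Lcn2, a secreted lipocalin, and Cited4, a transcriptional coregulator, had 593 and 727 FPKM in P. Those of Wfdc12 were Nrep (0.18), Spns2 (0.26) and Barx2 (0.27), and those of Wfdc2 were Car12 (0.23), Rab25 (0.29) and Cryab (0.29). For Wfdc18 the nearest was Igfbp5 at 0.93 and for Slpi the row Mir140 at 0.84, and the low genes Wfdc15b and Cst6 had Gm13807 (0.09) and Bsg (0.09) nearest. The distance grows with the size of the changes, so it ranks genes for 1 member and does not compare members.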

How the data were processed

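The data are 8 libraries of polyadenylated RNA depleted of ribosomal RNA, 2 per group, made with the NEBNext Ultra kit and read from both ends. The authors trimmed adaptors with Trimmomatic, mapped to GRCm38/mm10 with TopHat2, allowing few mismatches, counted with featureCounts of Subread and deposited FPKM per library. The gene annotation and strand setting are not given in the sources used here. The deposited tables of group comparisons hold the authors' own log2 fold changes, errors and p-values and were not used. The FPKM of 16933 of the 16933 genes with values in 3 or more libraries were whole multiples of a fragment within 0.002 fragments, which gave depths, fragments and gene lengths.

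The test was limma 3.58.1 in R 4.3.3 with statmod 1.5.0, using a trended and robust eBayes step, for genes that reached 1 FPKM in 2 libraries, on log2(FPKM + 1), with 4 groups in 1 fit, 4 residual and a median of 2.57 prior degrees of freedom, and Benjamini-Hochberg adjustment over all 13210 genes. Fold changes of low genes are understated by the pseudocount of 1. The thresholds were those of the study. The script was tested on simulated data. Python 3.11.15, numpy 2.4.6, pandas 2.3.3 and matplotlib 3.10.9 served for tables and figures. Positions are those of GENCODE on GRCm38, and start regions those of RefSeq.

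The named genes are all 9 members and, for every list in every comparison, at most 3 called genes by size of change and at most 2 further ones by level. Added to these are the 3 genes nearest in pattern to each member and the genes within 100 kb of a member on chromosome 2. Elane, Ctsg, Plau, Ptprc, S100a9, Mpo, Cxcr2, Cd68, Postn, Fn1, S100a4, Elf5, Krt5, Krt8, Krt15, Krt17 and Krt18 are markers or targets named after their values were seen. The members and lists were chosen with earlier results of these data known. The alternatives were pseudocounts of 0.1 and 0.5, a filter at 5 FPKM or none, quantile normalization, median ratio scaling, array weights, a replicate block, fits of fewer groups, other thresholds, and leaving out each library in turn. A limma-voom fit of the recovered fragments was added after the data were seen.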

Additional observations from a re-analysis of the deposited data

How the results depend on the processing

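Under 21 alternatives, 8 of which leave out a library, 611 of 655 fold changes of single genes kept their direction and their side of the thresholds, as did 161 of 166 counts within 1.5 times. The number of the 8 genes that rose in P against N was 5 and ranged from 3 to 5 when a library was left out, with the value of 3 whenever a library of N or P was missing. A group then has 1 library, which is assumed to vary like the others. When a library was left out the number was 6 to 7 for N against ESC and 3 to 4 for PRL against N. With quantile normalization 1 gene was called up in PRL against P (Cst6). The directions that turned were all of differences that were not called. Without N replicate 1 or P replicate 2, Wfdc2 in P against N was at -0.053 and -0.010, within a range of -0.053 to 0.19 over the libraries left out. With quantile normalization, Wfdc15b and Cst3 in PRL against P were at 0.15 and -0.25 and Cst6 in P against N at -0.061. Slpi in PRL against N was at 0.20 with median ratio scaling, 0.015 without N replicate 1 and 0.077 without PRL replicate 1 (range -0.096 to 0.077), and Cst3 in PRL against P was at -0.0092 without PRL replicate 1 (range -0.0092 to 0.019). The cause was not tested.

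The replicate numbers of the groups are shared only as numbers. The deviations of same-numbered libraries correlated between -0.03 and 0.08 in 6 pairs of groups. With a replicate block the number of genes that rose was 7 in N against ESC, 4 in P against N, 0 in PRL against P and 3 in PRL against N, and the calls of Wfdc15b were those lost. Wfdc15b in P against N also lost its call with pseudocounts of 0.1 and 0.5 (adjusted p = 0.00408 and 0.00101 from limma), with no filter (0.00153), with quantile normalization (0.00149), with limma-voom (0.00231) and without any 1 of the 6 HC11 libraries. Scaling moved the calls of all genes from 91 up and 190 down in PRL against P to 161 and 92 with median ratio scaling and 139 and 101 with quantile normalization. In PRL against N it moved them from 723 and 1057 to 987 and 830 and to 921 and 842. With 2 libraries a group and 7 fragments of Wfdc15b in N, depth limits that gene and Wfdc1 the most.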
